A study of Homo sapiens with 2 samples.

Results

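The HOX cluster genes of CAMA-1, a human epithelial breast cancer cell line, were described here by the accessibility of their chromatin. They were the protein-coding genes of GENCODE release 44 whose symbol is HOXA, HOXB, HOXC or HOXD followed by a digit, which gave 39 genes of 20033 in all, on the hg38 build. Accessibility was measured by ATAC-seq, in which the Tn5 transposase cuts open chromatin and inserts sequencing adapters, in 2 biological replicates of 50000 untreated cells each, cultured in DMEM with serum. The replicates form 1 condition of 1 cell line, so no conditions were compared, and no test between groups was possible.

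HOX genes encode homeodomain transcription factors that give cells their position along the body axis. They lie in 4 clusters, HOXA to HOXD, in which genes of the same paralog number descend from a common ancestor, and low numbers are generally used earlier and nearer the head than high numbers. Polycomb complexes keep HOX genes silent where they are not needed, trithorax and MLL complexes keep them active, and several HOX genes are known for altered use in breast tumours.

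Each replicate came with its own list of peaks, stretches where the peak caller MACS2 found more reads than its background, and each peak carried a fold enrichment over that background. The lists held 245736 peaks in replicate 1 and 259745 in replicate 2. They give no read totals, so the depth was not known from them, but the fold enrichments moved in steps of 0.230 and 0.221, which gave the number of reads stacked on the highest base of each peak, its height, with a median of 35 reads in each list. Overlapping peaks of both lists were joined into 215195 regions. A gene was called open where both replicates had a peak within 1 kb of any of its transcription start sites (TSSs), and closed otherwise, which says that no peak passed the caller's threshold in both lists and not that the chromatin was inaccessible. Where a pair of values is given, the first belongs to replicate 1 and the second to replicate 2. All 8 genes listed as markers of luminal breast epithelium were open, with fold enrichments from 31.3 to 147. The defining blood genes PTPRC and CD3E had no TSS peak, while CD14, the 2 fibroblast genes and the 3 basal genes did, so TSS accessibility alone did not separate these cell types.

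Of the 39 HOX genes, 21 were open, a share of 53.8% (95% Wilson interval 38.6 to 68.4%), whereas 79.3% of all protein-coding genes were. Of the 18 closed genes, 16 had no TSS peak in either replicate. The other 2, HOXB3 and HOXB4, had a weak peak in replicate 1 alone, with fold enrichments of 3.45 and 3.68. The calls were therefore the same in both replicates for all but these genes, with 23 open genes in replicate 1 and 21 in replicate 2. The intervals given here cover counting error only, and HOX genes share regions, so they are not independent draws.

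Open and closed genes alternated along the clusters rather than forming 1 block each. In paralog order the calls changed often enough to make 26 runs of adjacent genes of the same call. Of the anterior genes, with paralog numbers 1 to 3, 4 of 8 were open. Central genes, numbers 4 to 8, were open in 8 of 15 cases, and posterior genes, numbers 9 to 13, in 9 of 16. The 3 shares were close, and none reached the 79.3% of all genes. Both genes of paralog group 2 and all 3 of group 6 were open, and neither of the 2 genes of group 12 was.

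**Figure D1:**
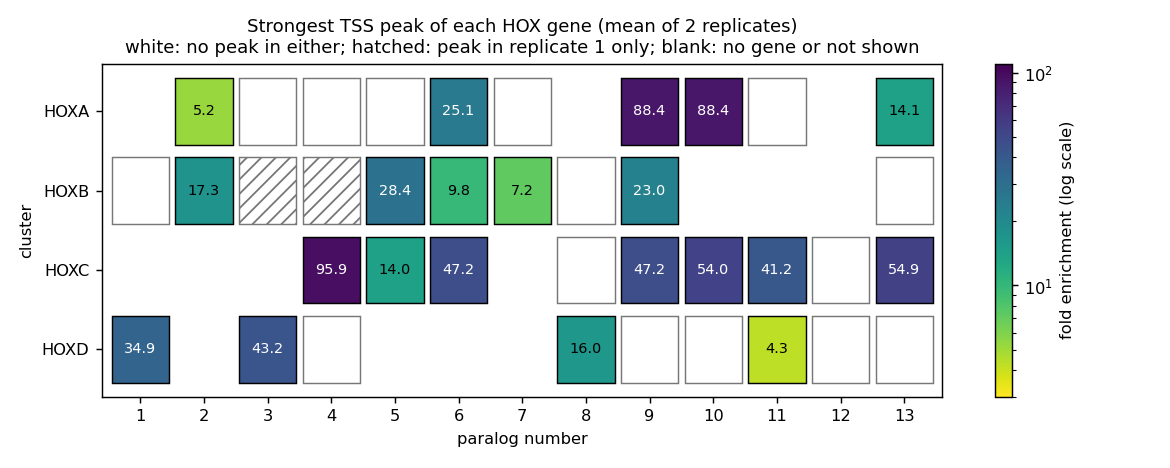
Calls and strength of the HOX genes, with paralog number across and cluster down. Each filled cell is coloured by the mean fold enrichment over both replicates of the strongest TSS peak of an open gene, on a log colour scale. White cells are closed genes without a peak in either replicate, hatched cells had a peak in replicate 1 alone, and blank places hold no gene or one that is not shown. HOXC holds 7 open genes of 9, more than the 5 of 11 in HOXA, 5 of 10 in HOXB and 4 of 9 in HOXD.

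HOXC, on chromosome 12 from 53938831 to 54056030 on the plus strand, was the most open cluster. Its 7 open genes were HOXC4 to HOXC6, HOXC9 to HOXC11 and HOXC13, and HOXC8 and HOXC12 were closed. HOXC4, a central gene, had TSS fold enrichments of 91.3 and 100.4 and heights of 396 reads (95% exact Poisson interval 358 to 437) and 453 reads (412 to 497). This peak lay at another TSS than the Ensembl canonical one, whose nearest region gave 19.1 and 18.4. HOXC5 beside HOXC4 had a much weaker strongest peak, at 13.8 and 14.2. HOXC6 and HOXC9 shared their strongest peak, at 42.3 and 52.0, in a region from 53994056 to 53996672, so these values are not separate observations. At their canonical TSSs the nearest regions were weaker, at 5.52 and 6.19 for HOXC6 and 6.21 and 5.09 for HOXC9. HOXC10, used in hindlimb motor neurons, reached 45.8 and 62.1, the larger value in replicate 2. HOXC11 gave 43.3 and 39.1. HOXC13, needed for hair and nail formation, gave 54.3 and 55.5, nearly equal in both replicates. By their strongest TSS peak, all these genes except HOXC5 were above the median of open HOX genes, 26.2 in replicate 1 and 30.5 in replicate 2.

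In HOXA, on chromosome 7 from 27092993 to 27200091 on the minus strand, the open genes were HOXA2, HOXA6, HOXA9, HOXA10 and HOXA13. HOXA9, known for its role in blood progenitors and leukaemia, and HOXA10, needed in the uterus, had the same strongest peak. It gave 84.2 and 92.7, with heights of 365 and 418 reads, and lay over a HOXA9 TSS. That TSS is not the Ensembl canonical one of HOXA9, which lay 4236 bp from the nearest region. HOXA10 also had a region of its own, 128 bp from a TSS, at 39.8 and 37.6. HOXA6 gave 23.7 and 26.5, and HOXA13, needed for limb and genital development, gave 13.8 and 14.4. HOXA2, which patterns the second pharyngeal arch, was weakest. Its peak gave 5.98 and 4.42, at 25 and 19 reads, and lay 965 and 974 bp from the TSS. HOXA3 to HOXA5, HOXA7 and HOXA11 were closed, with the nearest region 1270 bp from a TSS at HOXA3 and 6020 bp at HOXA5.

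HOXB lies on chromosome 17 from 48528526 to 48728750, also on the minus strand, and its open genes were HOXB2, HOXB5 to HOXB7 and HOXB9. HOXB5 gave 26.2 and 30.5, and HOXB9, which with its paralogs is needed for the mammary gland, gave 23.2 and 22.8. HOXB2, active in the hindbrain, gave 15.0 and 19.7. HOXB6 and HOXB7 were lower, at 10.6 and 9.07 and at 6.21 and 8.18. The cluster thus held no TSS peak as strong as those of HOXC10 or HOXC13. HOXB1, HOXB3, HOXB4, HOXB8 and HOXB13 were closed, and for HOXB13, a regulator of the prostate, the nearest region lay 3929 bp from the TSS.

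In HOXD, on chromosome 2 from 176092721 to 176190907 on the plus strand, HOXD1, HOXD3, HOXD8 and HOXD11 were open. HOXD3 gave 43.9 and 42.5 and HOXD1 gave 33.8 and 36.0. HOXD8 gave 17.3 and 14.8. HOXD11, which patterns the forelimb and the kidney, had a weak TSS peak, at 5.06 and 3.54 with heights of 21 reads (13 to 32) and 15 reads (8.4 to 25), intervals that overlap. HOXD4, HOXD9, HOXD10, HOXD12 and HOXD13 were closed. HOXD4 was the closed gene farthest from any region, at 10237 bp, and HOXD13, needed for digit formation, was 4031 bp away.

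**Figure D2:**
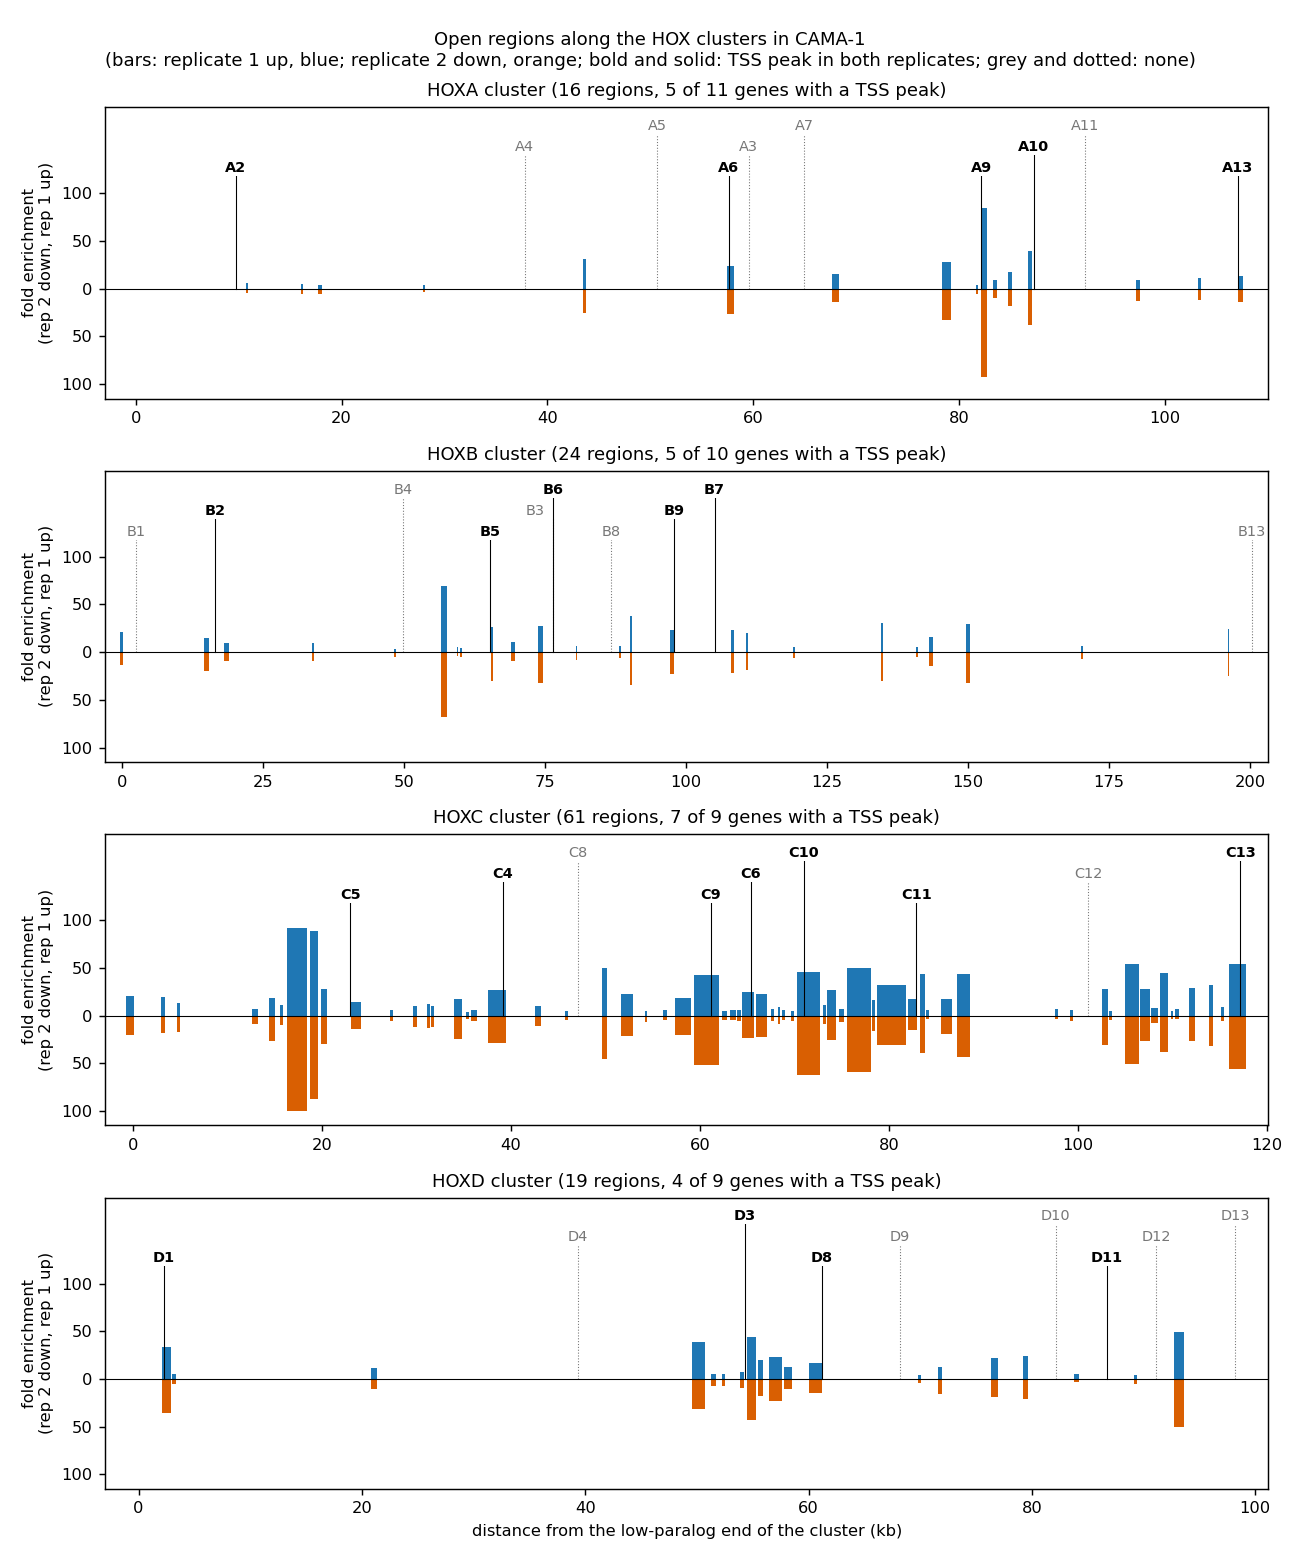
Maps of the 4 HOX clusters, with distance in kb from the low-paralog end on the x axis and fold enrichment on the y axis. Each bar is a region called in both replicates, upward in blue for replicate 1 and downward in orange for replicate 2, and lines mark the most 5′ TSS of each gene, solid with a bold label where open and dotted and grey where closed (1 gene is not marked, and the line of HOXB3 falls under that of HOXB6). Regions crowd the whole HOXC map, whereas HOXA, HOXB and HOXD hold long empty stretches.

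The peaks of open HOX genes were, in the median, weaker than those of open genes at large. Their median fold enrichment was 26.2 and 30.5, against 51.8 and 53.3 over all open protein-coding genes, a ratio of 0.540 ± 0.0466 (SD, n = 2). HOXA9, HOXA10, HOXC4 and HOXC13 exceeded the all-gene median in both replicates, and a further gene, HOXC10, did so in replicate 2. The strongest HOX peaks differed between replicates by a median of 11.3% of their mean and by at most 35.4%, at HOXD11. HOXC4 and the shared peak of HOXA9 and HOXA10 had the highest values and HOXA2 and HOXD11 the lowest, but within each of these pairs, and between HOXB5 and HOXB9, the means lay closer together than the largest difference between replicates.

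**Figure D3:**
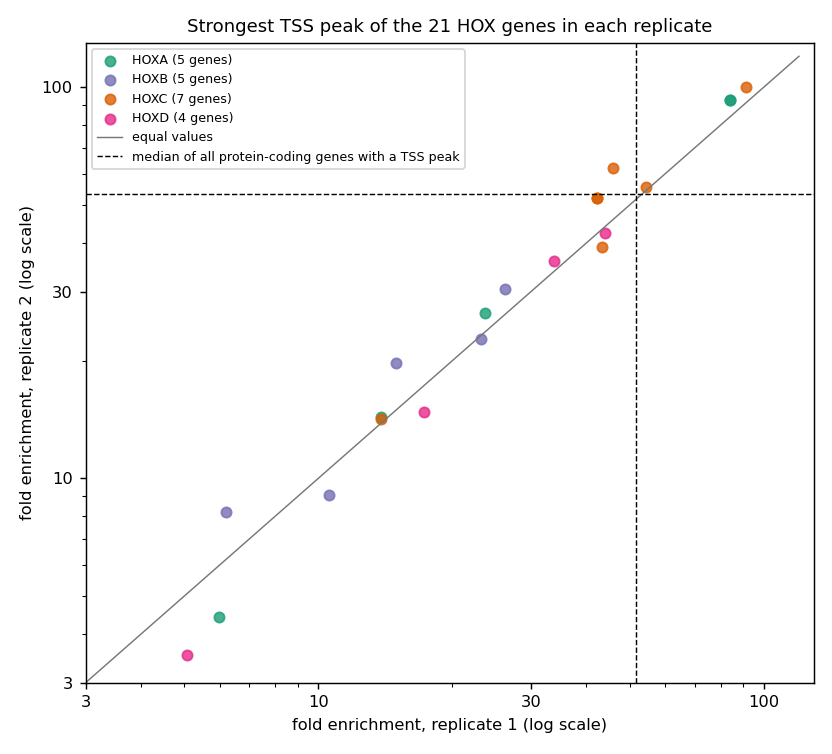
Fold enrichment of the strongest TSS peak of each open HOX gene in replicate 1 (x axis) and replicate 2 (y axis), both on log axes, with the medians over all open protein-coding genes as dashed lines, equal values as the grey diagonal, and a colour for each cluster. Most genes sit below both lines, at 51.8 and 53.3, and HOXC4 and the shared peak of HOXA9 and HOXA10 lie farthest above.

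The call depended on the distance allowed to the TSS. Within 100 bp, 14 HOX genes (35.9%) had a peak in both replicates, against 73.2% of all genes. Within 3 kb, 32 did (82.1%), against 85.0%. Most HOX genes called closed thus had a region nearby: 11 of the 18 had one within 3 kb of a TSS and 7 did not, among them HOXA4, HOXA5, HOXA11, HOXB13, HOXD4 and HOXD13. Just inside the 1 kb limit stood HOXA2, and just outside it stood HOXC8, with a region 1086 bp away at 4.60 and 5.09, HOXA3 at 1270 bp, HOXB3 at 1294 bp, HOXB8 at 1295 bp and HOXB4 at 1300 bp. The TSS chosen mattered as well. With only the most 5′ TSS of each gene, 17 HOX genes (43.6%) were open against 71.7% of all genes, and with the Ensembl canonical TSS 15 (38.5%) against 73.5%. HOXA6, HOXA9, HOXB2, HOXB6, HOXB7 and HOXD3 were open only through another TSS than the canonical one. With only the TSSs of protein-coding transcripts, 16 HOX genes (41.0%) were open against 77.2% of all genes. Of the genes just named, HOXD3 alone was open in that setting.

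**Figure D4:**
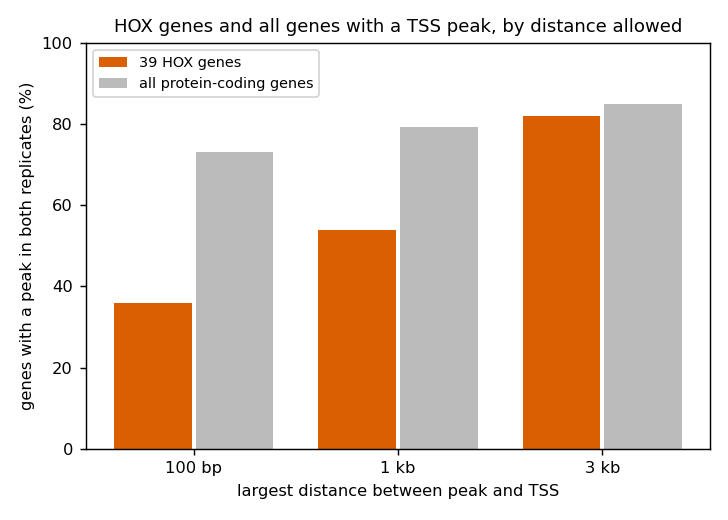
Share of HOX genes and of all protein-coding genes with a peak in both replicates within 100 bp, 1 kb and 3 kb of a TSS, in percent, with HOX genes in orange and all genes in grey. The HOX share climbs from 35.9 to 53.8 to 82.1% and the share of all genes from 73.2 to 79.3 to 85.0%, so the gap is narrowest at 3 kb.

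The clusters differed in how much of their length was open. Regions called in both replicates covered 41.1% of HOXC, 11.4% of HOXD, 5.91% of HOXA and 5.65% of HOXB, against 3.87% of the genome. In the separate lists HOXC had 37.9 and 39.4%, while HOXD came next with 10.9 and 11.0%, so HOXC stood apart in each replicate. It held 61 regions, or 5.20 per 10 kb, while HOXD held 19 (1.94), HOXA 16 (1.49) and HOXB 24 (1.20), and the genome had 0.733 per 10 kb. HOXC regions were also wider, with a median of 594 bp against 363 bp over the genome. Of its regions 16 were 1 kb or wider (26.2%, against 10.1% of all regions), and the widest spanned 3056 bp. In the 100 kb on each side, coverage was 6.29% beside HOXC, 2.67% beside HOXD, 2.50% beside HOXA and 7.36% beside HOXB, the only cluster covered less than its flanks. The HOXB span was also the longest, at 200 kb against 98.2 to 117 kb. It takes in the stretch from 48633572 to 48724763, before HOXB13, which holds no HOX gene. The low coverage and density of HOXB refer to this whole span, and the part without that stretch was not measured separately.

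**Figure D5:**
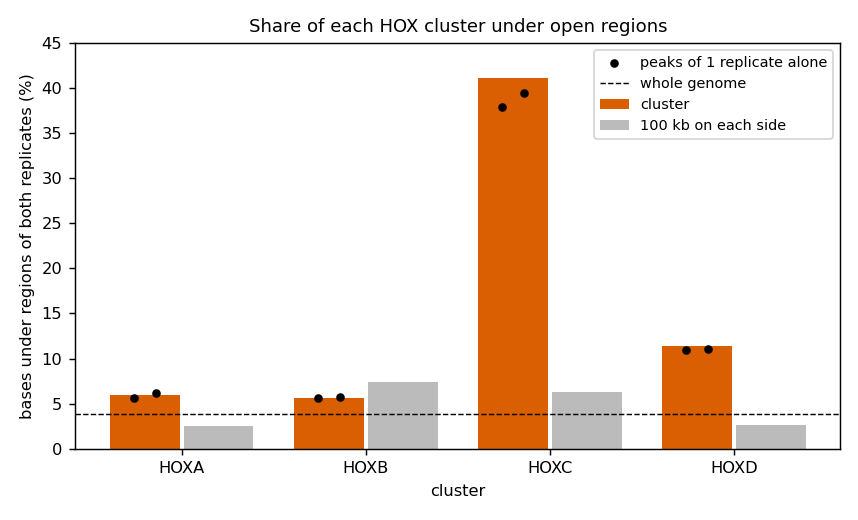
Percentage of each HOX cluster covered by regions called in both replicates, in orange, beside the 100 kb flanks on each side, in grey. Dots are the peaks of each replicate alone, and the dashed line is the genome, at 3.87%. The bar of HOXC reaches 41.1%, and those of the other 3 clusters lie between 5.65 and 11.4%.

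Closed stretches ran through every cluster and were not all placed at closed genes. The longest in HOXD spanned 28261 bp, from 176141314 to 176169574, and held the TSS of HOXD4 and a TSS of HOXD3, which was open through another one. The longest in HOXB spanned 25676 bp, from 48698850 to 48724525, between HOXB9 and HOXB13, and held no HOX TSS. The longest in HOXA spanned 15309 bp, from 27121123 to 27136431, and held the TSSs of HOXA4, a closed gene. HOXC had no stretch above 8933 bp, from 53958479 to 53967411, which ran from the 3′ end of HOXC12 into the noncoding gene HOTAIR and held no HOX TSS.

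Regions in the clusters lay at TSSs and away from them. Of the 120 regions in the clusters, 35 were within 1 kb of a HOX TSS, 16 were at the TSS of another gene alone, and 69 were at neither (57.5%), against 80.1% of all 215195 regions away from any TSS. Those away from TSSs had a median fold enrichment of 11.7 and 12.4, and those at HOX TSSs 19.1 and 19.7. The highest values among the former, 68.8 and 67.4, belonged to a HOXB region from 48585051 to 48586188, within the annotated body of HOXB3, a closed gene, and it exceeded every TSS peak of HOXB. HOXC held strong regions away from TSSs from 53977950 to 53980493 (50.2 and 58.6), from 53949520 to 53951020 (53.8 and 50.4) and from 54005912 to 54006358 (49.7 and 46.0). In HOXD a region from 176097268 to 176098195, between HOXD13 and HOXD12, gave 49.5 and 50.6 although both genes were closed. In HOXA a region from 27136432 to 27136755, between HOXA4 and HOXA5 and within the annotated span of HOXA3, gave 30.8 and 25.4, and these 3 genes were closed too.

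CpG-rich promoters are usually open in any cell type, so the base composition around each most 5′ TSS was compared, as the GC percentage and the ratio of observed to expected CpG within 500 bp on either side. HOX promoters were not poor in CpG, with a median ratio of 0.695 against 0.688 over all genes and a GC content of 59.6% against 59.2%. Among the 21 HOX genes with GC above 55% and a ratio above 0.65, 11 were open, whereas 92.9% of all such genes were. Open HOX genes had a median ratio of 0.680 (0.274 to 0.941) and closed ones 0.729 (0.386 to 0.981), ranges that overlap almost fully. Promoters of 2 open and 2 closed genes are shown as examples of CpG-rich stretches. They are the 250 bases before the RefSeq start, read from the RefSeq promoter table on GRCh38.p14, which held 20 of the 39 HOX genes, and CpG dinucleotides are in capitals.
HOXA13, open, chr7:27200092-27200341, minus strand: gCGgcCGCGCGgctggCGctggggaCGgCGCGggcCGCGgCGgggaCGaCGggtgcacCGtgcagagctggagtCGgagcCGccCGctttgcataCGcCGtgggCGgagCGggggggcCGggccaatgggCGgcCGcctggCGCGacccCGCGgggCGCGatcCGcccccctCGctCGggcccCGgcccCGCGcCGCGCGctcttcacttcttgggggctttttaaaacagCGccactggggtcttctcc
HOXD1, open, chr2:176188418-176188667, plus strand: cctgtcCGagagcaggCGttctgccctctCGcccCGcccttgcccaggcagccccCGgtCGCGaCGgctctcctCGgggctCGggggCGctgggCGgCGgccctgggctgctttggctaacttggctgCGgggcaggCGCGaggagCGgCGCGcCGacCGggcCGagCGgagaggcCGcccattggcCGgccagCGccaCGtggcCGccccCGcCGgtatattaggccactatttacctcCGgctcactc
HOXA4, closed, chr7:27130758-27131007, minus strand: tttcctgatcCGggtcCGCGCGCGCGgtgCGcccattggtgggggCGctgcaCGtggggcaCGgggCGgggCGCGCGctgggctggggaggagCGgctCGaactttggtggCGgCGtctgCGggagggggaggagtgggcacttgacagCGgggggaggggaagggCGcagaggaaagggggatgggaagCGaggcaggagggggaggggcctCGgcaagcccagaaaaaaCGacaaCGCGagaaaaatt
HOXD13, closed, chr2:176092471-176092720, plus strand: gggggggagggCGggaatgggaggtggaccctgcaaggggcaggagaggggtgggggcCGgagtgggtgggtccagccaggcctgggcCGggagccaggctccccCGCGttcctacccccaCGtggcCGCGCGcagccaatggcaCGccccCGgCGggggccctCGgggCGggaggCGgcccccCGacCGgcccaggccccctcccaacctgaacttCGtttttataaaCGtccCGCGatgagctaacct

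The HOXA13 stretch held 40 CpG dinucleotides and that of HOXD1 held 31. The closed HOXA4 had 26 and the closed HOXD13 had 21, all above the median of 11 over 35116 promoters of the table. Among these 4 the open genes had more, but over the HOX genes of the table the numbers overlapped, with 8 at the open HOXA2 and 28 at the closed HOXA7. At least as many stood in 2.16% of all promoters for HOXA13, 10.9% for HOXD1, 19.6% for HOXA4 and 30.2% for HOXD13. Nevertheless, no region came within 5652 bp of a HOXA4 TSS.

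Among the long noncoding RNA genes listed in the clusters, 11 of 15 were open, against 43.8% of all such genes. The list does not hold every such gene of the clusters. Most of the open ones had the same strongest peak as an open HOX gene, so those calls are not separate observations. Besides HOTTIP, the genes were HAGLR at HOXD1, HOXD-AS2 at HOXD3, HOXC-AS3 at HOXC10, HOXC13-AS at HOXC13, HOXB-AS1 at HOXB2 and HOXA-AS3 at HOXA6. Of the 4 listed protein-coding neighbours 1, PRAC2, was open, against 79.3% of all protein-coding genes. HOTAIR, a long noncoding RNA from the opposite strand of HOXC that is known from breast tumours, gave 43.5 and 43.1. HOTTIP, a noncoding RNA at the 5′ end of HOXA, shared the HOXA13 region at 13.8 and 14.4. HOTAIRM1, a noncoding RNA gene of HOXA, was closed. EVX1 and EVX2, homeobox genes beside HOXA and HOXD, were closed as well.

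The microRNA families miR-10 and miR-196 are known to act on HOX transcripts. Mature sequences from these families and of MIR615 are shown because the families run across clusters. The matching sequence of MIR10B was missing from the source used and is not shown. Capitals mark the seed, bases 2 to 8, which pairs with targets.
miR-10a-5p: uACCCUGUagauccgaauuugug
miR-196a-5p: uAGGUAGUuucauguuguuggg
miR-196b-5p: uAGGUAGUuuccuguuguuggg
miR-615-3p: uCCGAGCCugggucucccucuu

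The miR-196a and miR-196b sequences share their seed. Of their 3 genes, MIR196A2 in HOXC was open, with its strongest peak within 1 kb at 24.6 and 23.0. Its hairpin lay inside a joined region at 6.21 and 5.53, where only the replicate 2 peak reached the TSS of MIR196A2. The nearest replicate 1 peak lay 181 bp from that TSS. MIR196A1 in HOXB lay 3952 bp and MIR196B in HOXA 1789 bp from the nearest region. MIR10A in HOXB and MIR10B in HOXD, of the other family, were closed, at 2788 and 8990 bp. MIR615, in HOXC, lay just at the limit, with the nearest peak at 960 bp in replicate 1 and, past the limit, at 1023 bp in replicate 2, and so was closed. Of all 8 microRNA genes annotated within the clusters 3 were open, against 38.4% of all microRNA genes. The other 2 open genes, named after their values were seen, were MIR7704 in HOXD, beside HOXD1, at 33.8 and 36.0, and MIR3185 in HOXB, beside PRAC2, at 23.9 and 25.0.

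CTCF binds boundaries within HOX clusters, so the 12 core letters of its motif were searched on both strands of the 501 bp around each region's midpoint. They were in 3 of the 120 HOX regions (2.5%) and in 2.44% of all 215195 regions. The 3 matches follow, with 14 bases on either side in lower case, read on the matching strand.
HOXB, chr17:48636614-48636653, plus strand: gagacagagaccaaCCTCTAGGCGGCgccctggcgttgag
HOXC, chr12:53950203-53950242, minus strand: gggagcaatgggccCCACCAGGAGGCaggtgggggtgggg
HOXC, chr12:54026289-54026328, plus strand: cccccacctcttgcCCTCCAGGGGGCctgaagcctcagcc

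The HOXB match lay in a region at 23.5 and 22.3 beyond HOXB9, the first HOXC match in the strong region from 53949520 to 53951020, and the second in a region at 9.89 and 12.4. With 1 further position of the motif left free, which takes in every earlier match, 12 HOX regions (10%) matched against 5.14% of all regions. A match of letters is a description, not a binding site.

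Lists of genes that act with HOX genes were read against the 79.3% of all protein-coding genes. All 9 HOX cofactors of the PBX, MEIS and PKNOX families, which bind DNA with HOX proteins, were open, with medians of 36.4 and 33.6. All 22 Polycomb genes, with medians of 43.6 and 45.4, and all 13 trithorax and MLL genes, with 47.4 and 56.4, were open too. None of the 8 ParaHox and EVX genes, the closest relatives of HOX genes, was open in both replicates, although CDX1 and CDX2 each had a peak in 1 of them.

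The copy number of the clusters was not measured here. Its part in the fold enrichments, and in the coverage, number and width of regions, was not tested. The median fold enrichments of open genes within 2 Mb were 80.3 and 76.7 around HOXC, and from 48.6 to 52.8 around the other clusters. As a local measure, the HOX medians were divided by those of these neighbours. The ratios were 0.513 ± 0.0454 for HOXA, 0.333 ± 0.0665 for HOXB, 0.608 ± 0.0980 for HOXC and 0.500 ± 0.0265 for HOXD (SD, n = 2 each). The HOX median was thus below that of the neighbours in each cluster and in both replicates. Of these local genes 88.2% were open around HOXA, 90.8% around HOXB, 70.5% around HOXC and 85.0% around HOXD.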

How the data were processed

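Peak lists of 2 ATAC-seq replicates of CAMA-1 were used. Per the submitters' processing notes, the authors used Trim Galore 0.6.5, Bowtie2 2.3.5.1 and MACS2 2.2.6 on hg38. The MACS2 settings and the treatment of duplicate reads are not given in the sources used here. The authors deposited, for each peak, a score (10 times the −log10 q, its whole part), the fold enrichment (its ratio over the MACS2 background), and the −log10 values of its p-value and its q-value. The values were used as deposited, and peaks were called per replicate, without pooling. Files that list only peaks past a threshold give no level elsewhere, and the read depth, which decides how many peaks pass, is not in them.

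Peaks overlapping by at least 1 bp were joined into regions. TSSs came from all transcripts of GENCODE release 44. Heights were recovered from the step of the fold enrichments to within 0.001 steps and have exact Poisson 95% intervals. HOX genes were named, except 1 that is not reported here by name, like 1 marker gene, and other genes came from lists of cluster neighbours, cofactors, chromatin regulators and markers. The members and lists were chosen with earlier results of these data known. CpG-rich promoters had GC above 55% and an observed to expected ratio above 0.65. HOTAIRM2 was not found by symbol. No test was run, and shares of all genes or regions stand beside the main counts. Results were recomputed with peaks of −log10 q 10 or more, with the 50000 strongest peaks (ties kept), with each replicate alone, other distances and TSSs, the mean over TSS peaks, a reciprocal overlap of 50%, clusters widened by 10 kb, and looser CTCF letters. Calls were run on simulated data, where 468 of 468 genes given a peak were found among 930 genes of chromosome 7. The simulated peaks all lay well within 1 kb of a TSS in both replicates, so this checked the search alone. Scripts ran in Python 3.11.15 with numpy 2.4.6 and scipy 1.17.1, and figures were drawn with matplotlib 3.10.9.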

Additional observations from a re-analysis of the deposited data

How the results depend on the processing

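Of 111 alternative values, 62 stayed within the spread between replicates or, for counts, within 1.5 times, and 49 moved. Changes of direction were not scored. The local ratios with 1 replicate left out are the values behind their own mean, so they stay within its spread by arithmetic. No paired analysis was possible because the labels give 1 condition alone, whose replicates have no partner. A rule on CpG-rich HOX genes, its alternatives and the local ratio per replicate were chosen after seeing the data.

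The 21 open HOX genes became 12 among the 50000 strongest peaks (30.8%, against 61.5% of all genes) and 32 within 3 kb (82.1%, against 85.0%), and the 26 runs became 17 and 13. The 11 open CpG-rich HOX genes became 7 among the strongest peaks. These settings keep fewer or more peaks by construction. The ratio of medians, 0.540, was 0.645 with a −log10 q minimum of 10, 0.739 among the strongest peaks, 0.377 at canonical TSSs, 0.618 at TSSs of protein-coding transcripts, 0.631 as a mean over TSS peaks, and 0.464 to 0.580 with 1 replicate left out. It stayed below 1 throughout.

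With a −log10 q minimum of 10, coverage was 4.64% (HOXA), 5.15% (HOXB), 37.0% (HOXC) and 9.48% (HOXD), and among the strongest peaks 2.62, 2.06, 21.8 and 3.65%. A reciprocal overlap of 50% gave 5.47% (HOXB) and 39.7% (HOXC), and widened clusters gave 5.96% (HOXB), 36.4% (HOXC) and 10.3% (HOXD). With 1 replicate left out, coverage was 37.9 to 39.4% in HOXC and 10.9 to 11.0% in HOXD. HOXC had the highest coverage under each of these. The strongest peaks left 5, 7, 20 and 4 regions in HOXA to HOXD. The longest stretches without a region were 43439, 56525, 16965 and 46697 bp there, and 43439 bp (HOXA) and 10678 bp (HOXC) with a −log10 q minimum of 10. With 1 replicate left out they were 15309 to 15377 bp in HOXA, 21633 to 25682 bp in HOXB, 7817 to 8000 bp in HOXC and 28329 to 28363 bp in HOXD. The share of HOX regions with CTCF letters was 10% with the looser letters (5.14% of all regions) and 3.30% with a −log10 q minimum of 10 (2.87%). Among the strongest peaks it was 2.78%, or 1 of 36 regions, below the 4.17% of all regions. With 1 replicate left out it was 2.16 to 2.27%, against 2.21 to 2.29% of all regions. Where the construction of a setting does not show it, the cause was not tested.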
